A study of Mus musculus with 12 samples.

Results

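The comparison set hepatocytes from the tissue around induced liver tumours against hepatocytes from untreated mice. It used 6 of the 12 libraries of the series, chosen by their sample titles. Of these, 3 are titled PH_WT_tumors and 3 PH_WT_notreat, called peritumoral and untreated here. WT, for wild-type, stands in the titles of both groups. All 41128 genes of the count table were read, and 13442 had enough counts to be tested. The cells of both groups had been dissociated from liver and selected on a Percoll density gradient. Both groups carry the label Lats1tm1.1Jfm/RjoJ; Lats2tm1.1Jfm/RjoJ, a line with conditional alleles of both kinases that restrain YAP and TAZ. No source used here says whether a Cre recombinase was present. In the peritumoral group, tumours had grown for 8 weeks after plasmids for the SB11 transposase (1 µg), myc-NICD, the active intracellular part of Notch (20 µg), and myr-ha-Akt, a membrane-bound Akt kinase (4 µg), were injected hydrodynamically, a route that delivers plasmids mainly into hepatocytes. Mice were injected at 8 weeks of age and every sample is labelled 8 weeks, so the peritumoral mice may be older than the label and than the untreated mice. The labels do not say that the replicates are separate animals, and the spread behind each p-value is that between these samples, which may be technical.

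Hepatocytes differ along the liver lobule: cells near the portal vein make urea and glucose, and cells next to the central vein, where Wnt signals are strongest, take up ammonia into glutamine and carry most of the drug-metabolising cytochromes. Growth hormone, acting through its receptor, JAK2 and STAT5, induces the feedback inhibitors of the SOCS family in hepatocytes, and its sex-specific rhythm sets a large group of male-biased and female-biased liver genes. YAP and TAZ act on DNA through TEAD factors, in hepatocytes and in many other cell types.

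Library totals ran from 16228747 to 18522324 counts, and levels are given as CPM, counts scaled to library size with TMM factors. A count of 3, the least taken as detection, was worth 0.124 to 0.236 CPM, for counting error only. The defining markers of hepatocytes were present in every library: Alb, the gene of albumin, stood at 67479, 68370 and 84610 CPM in untreated and 85935, 47892 and 126660 CPM in peritumoral libraries. Peritumoral replicate 2 stood apart from the other 5 libraries. Xist, the RNA of the inactive X chromosome of female cells, stood at 0, 0 and 0.0787 CPM in untreated and 0.182, 405 and 0.0578 CPM in peritumoral libraries. Ddx3y, a gene of the Y chromosome, stood at 77.5, 66.6 and 76.1 CPM in untreated and 59.8, 0 and 64.1 CPM in peritumoral libraries, so replicate 2 alone had Xist and no Y-linked signal, and no label gives the sex of the mice. Its log2 levels correlated with the other peritumoral libraries at a mean r of 0.897, against 0.928 and 0.932 for replicates 1 and 3, while untreated replicate 3 (0.970) was the least like its own group (0.981 and 0.980). Results that rest on replicate 2 are therefore given with and without it.

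Of the 13442 genes, 2560 (19%) were higher and 1370 (10.2%) lower in peritumoral hepatocytes by edgeR's quasi-likelihood test at a Benjamini-Hochberg adjusted p under 0.05, 29.2% in all. Rises were most frequent below 10 CPM and falls at 100 to 1000 CPM, by the mean over all 6 libraries, which includes the change itself. The ranges overlapped: of 7126 genes at 10 to 100 CPM, 11.4% rose and 13.8% fell. Among 4176 genes with a mean level of 1 to 10 CPM, 35.1% rose and 2.54% fell, and among 1441 genes at 100 to 1000 CPM, 6.11% rose and 18.5% fell, with a median log2 fold change of -0.38. Of 112 genes above 1000 CPM, 1 rose and 6 fell. How many genes fell depended on the scaling. When the libraries were scaled on 244 genes of hepatocyte function in place of all genes, log2 fold changes moved up by a median of 0.25. Then 2390 genes (17.8%) rose and 116 (0.863%) fell, so that 95.4% of calls were higher against 65.1% under TMM. Falls below are therefore given under both scalings. Leaving out untreated replicate 1 or 2 left 1293 or 1364 rises and 66 or 130 falls, and leaving out peritumoral replicate 2 or 3 left 2478 or 2298 rises and 626 or 433 falls. In bulk RNA, fewer cells of a type and less RNA per cell cannot be told apart.

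The summed RNA of markers of other cells was higher in every peritumoral library than in any untreated one. Of 104 tested markers of 10 other cell types, 87 rose and none fell by edgeR (1 fell without peritumoral replicate 1), beside 19% of all genes, and 85 rose under hepatocyte scaling and 89 without peritumoral replicate 2. All 134 markers in the table summed to 1614, 1445 and 1324 CPM in untreated and 8096, 19416 and 11741 CPM in peritumoral libraries, and the groups did not overlap. In peritumoral replicate 2, Spp1 (7355 CPM) and Gp2 (2682 CPM) made up much of the sum. The sum includes genes of pancreatic acinar cells and does not measure the amount of other liver cells. Of the 134 markers, 82 had a mean of at least 1 CPM in untreated hepatocytes, so RNA of these 82 was also present there. Whether it came from other cells or from hepatocytes was not tested. The 82 include 11 pancreatic acinar genes, and the acinar list summed to 242, 2.33 and 4.01 CPM in the untreated libraries. The part of other cells in the changes described below was not tested.

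**Figure D1:**
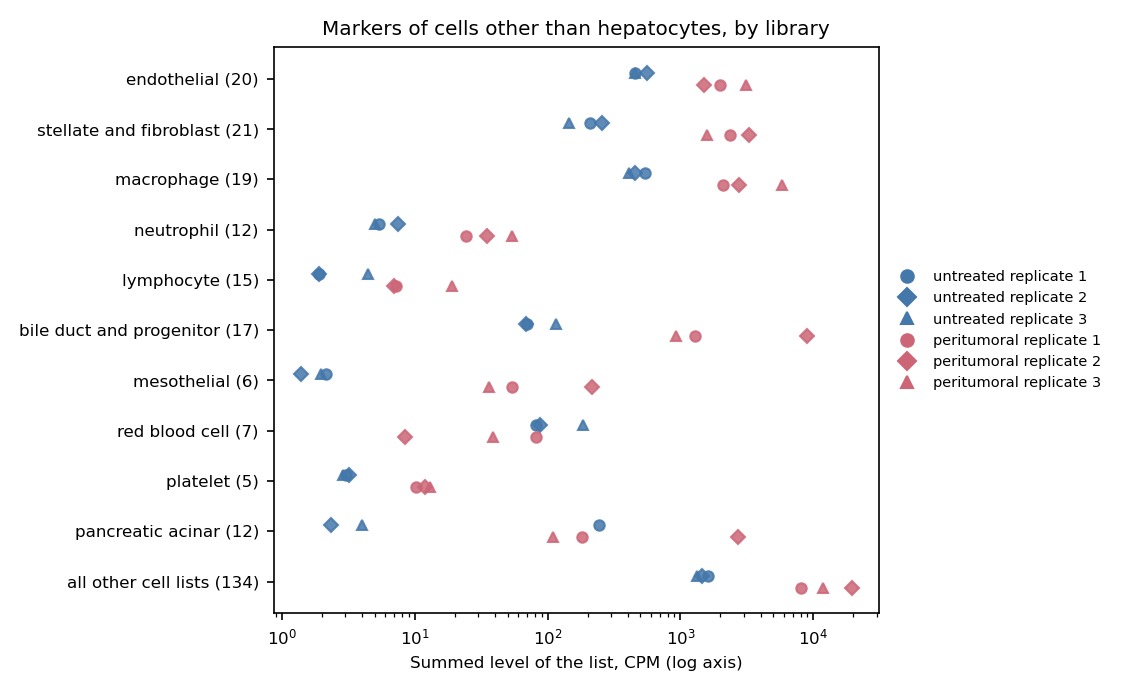
Summed CPM (log axis) of the markers of each other cell type, 1 point per library, with the number of marker genes in the table in parentheses. Blue untreated and red peritumoral points overlap for acinar markers, the red points lie lower for red blood cell genes, and peritumoral replicate 2 (red diamond) is highest for bile duct, mesothelial, stellate and acinar markers.

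All 20 endothelial markers rose (median log2 fold change 2.08), among them Stab2, a scavenger receptor of sinusoidal endothelium, at 39.97, 46.8 and 33.98 CPM in untreated and 156, 154 and 229 CPM in peritumoral libraries. Of 21 stellate cell and fibroblast markers, 18 rose (median 3.37): Rgs5, a G-protein regulator of pericytes, stood at 11.1, 13.5 and 9.75 CPM in untreated and 104, 107 and 94.4 CPM in peritumoral libraries. Of 19 macrophage markers 16 rose, and of 10 neutrophil markers 9 rose (5 without untreated replicate 1). Of the 12 neutrophil genes in the table, 2 had a mean of at least 1 CPM in untreated libraries. A gene near 0 CPM there could be tested only with enough counts in all 3 peritumoral libraries. The count filter thus favoured rises among such genes in every list. Itgam, an integrin of myeloid cells, stood at 4.56, 2.97 and 2.83 CPM in untreated and 24.6, 52.3 and 49.6 CPM in peritumoral libraries, though 68.7% of its exon length is shared with another annotated gene. Ngp, a neutrophil granule gene, stood at 0, 0.174 and 0.0787 CPM in untreated and 3.21, 4.69 and 8.61 CPM in peritumoral libraries. For endothelial markers replicate 2 was the lowest peritumoral library in 16 of 20 (against 38.5% of all genes): its endothelial sum (1497 CPM) was the lowest of the peritumoral libraries and its macrophage sum (2753 CPM) lay between those of the others.

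Bile duct and mesothelial markers were highest in it. Bile duct and progenitor markers summed to 69.7, 68.8 and 115 CPM in untreated and 1290, 8926 and 931 CPM in peritumoral libraries, replicate 2 was the highest of the 3 for all 16 tested members (against 41.7% of all genes), and 14 rose, with 13 rises without replicate 2. Krt19, the bile duct keratin, was found at 1.04, 0.465 and 0.551 CPM in untreated and 19.3, 63.2 and 12.5 CPM in peritumoral libraries, so the groups did not overlap with or without replicate 2. Cftr, a chloride channel of bile duct cells, had 3 counts over the untreated group and 1790 over the peritumoral group, a ratio of 487 (95% counting interval 166 to 2362). Mesothelial markers summed to 2.14, 1.395 and 1.97 CPM in untreated and 54.3, 217 and 36.01 CPM in peritumoral libraries. All 6 rose (3 without untreated replicate 2). Wt1, a transcription factor of the mesothelium, stood at 0.173, 0.0581 and 0.0787 CPM in untreated and 7.21, 38.9 and 5.66 CPM in peritumoral libraries. In untreated libraries 0 of these 6 and 8 of the 17 bile duct genes had a mean of at least 1 CPM. The count filter favoured rises among those near 0 CPM there. Gp2, a membrane glycoprotein of pancreatic acinar cells, stood at 4.62, 0 and 0.0787 CPM in untreated and 183, 2682 and 109.9 CPM in peritumoral libraries, but the digestive enzyme genes of the same list did not follow it: Ctrb1, Cpa1 and Pnlip lay between 28.8 and 53.1 CPM in untreated replicate 1 and at most at 3.98 CPM elsewhere. Gp2 lost its call when untreated 2 or 3 was omitted (adjusted p = 0.0709 to 0.0777). Of the remaining lists, 1 of 3 lymphocyte markers rose (Gzma, a granzyme, with 3 counts against 61, a ratio of 16.6 with a 95% counting interval of 5.41 to 82.6), as did both platelet markers tested (Pf4, a platelet chemokine, and Itga2b), and none of 5 red blood cell genes passed in either direction by edgeR or DESeq2. Gzma lost its call when untreated 1, 2 or 3 was omitted (adjusted p = 0.063 to 0.0814), and 3 and 2 lymphocyte genes rose without peritumoral replicate 1 and 2. Itga2b lost its call when untreated 1, 2 or 3 or peritumoral 3 was omitted (adjusted p = 0.0594 to 0.127). Alas2, the haem synthesis enzyme of erythroid cells, stood at 75.5, 76.5 and 177 CPM in untreated and 68.1, 6.01 and 5.49 CPM in peritumoral libraries (adjusted p = 0.174), and 2 red blood cell genes rose without peritumoral replicate 2 and 1 fell without replicate 1.

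Most genes of the hepatocyte lists did not pass the test, which does not show that they were unchanged. Across 15 lists of hepatocyte function with 302 tested members, 30 rose (9.93%) and 23 fell (7.62%), against 19% and 10.2% of all genes (29.2% in either direction). The median log2 fold change was -0.22 (0.03 under hepatocyte scaling). Of the rises, 28 also passed under hepatocyte scaling and 22 under that scaling and without peritumoral replicate 2; of the falls, 10 and 8 did. With each library left out in turn, 14 of the 30 rises and 3 of the 23 falls passed every time. Without untreated replicate 1 or 2, 19 or 14 members rose and 4 or 5 fell, whereas with peritumoral replicate 2 and untreated replicate 3 both left out, 84 rose and 43 fell.

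**Figure D2:**
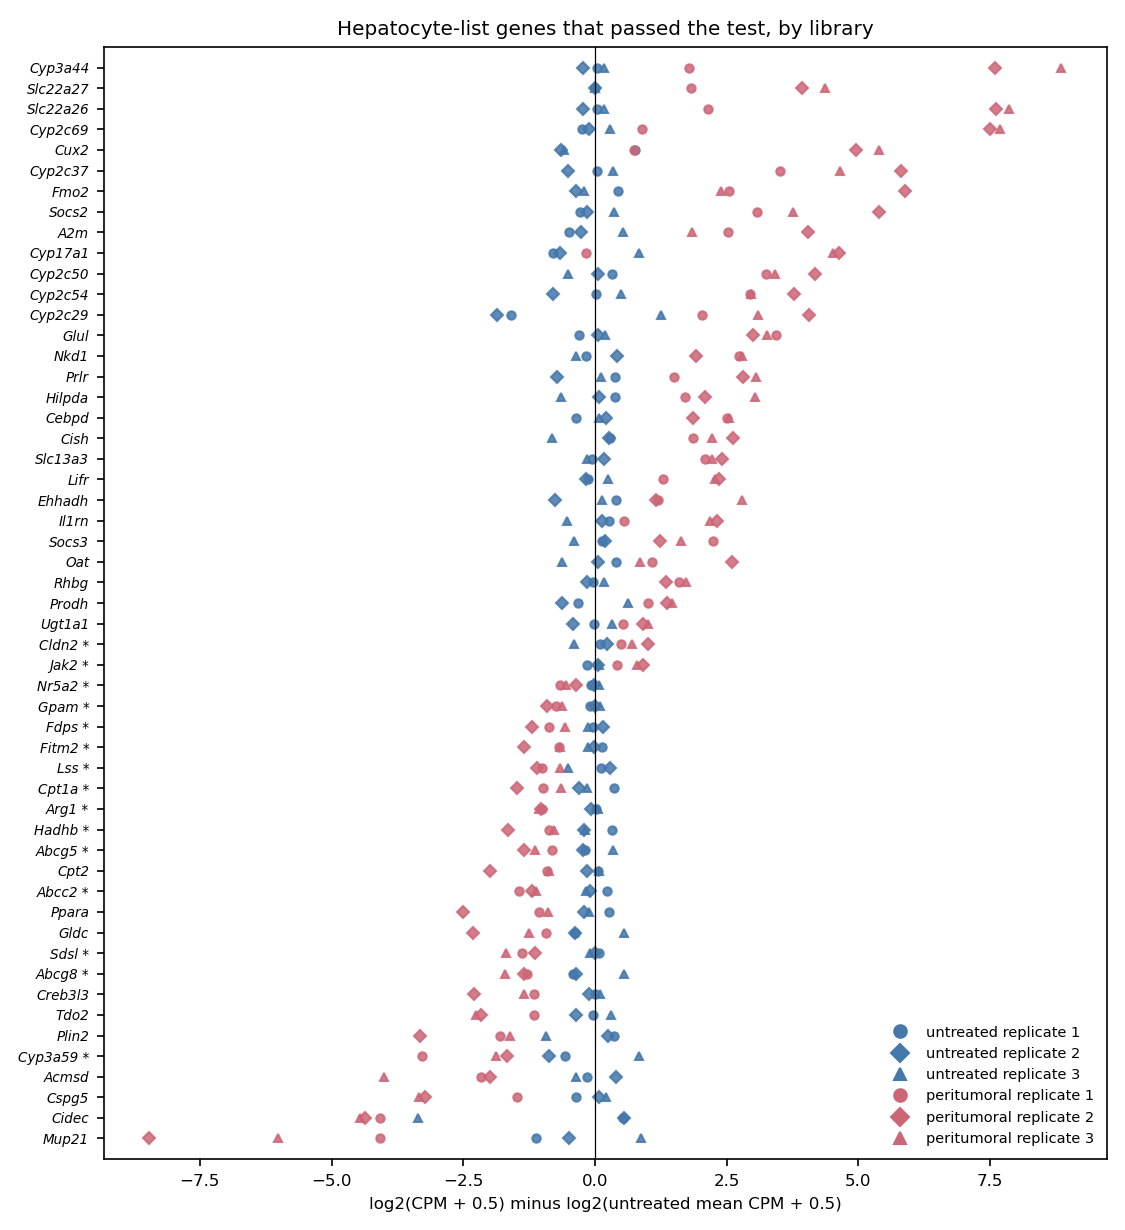
Level of each of the 53 hepatocyte-list genes that passed the test, as log2(CPM + 0.5) minus the same of the untreated mean (x axis), 1 point per library; an asterisk marks a gene that did not pass under hepatocyte scaling as well. Most genes show 3 red points to the same side of the blue ones, and peritumoral replicate 2 (red diamond) is the most displaced of the 3 for Mup21, Plin2, Ppara and Socs2.

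Of the pericentral genes, Glul, Slc13a3, Rhbg and Nkd1 rose with any library left out. Glul, the glutamine synthetase of the cells next to the central vein (ENSMUSG00000026473, GRCm38 chromosome 1, positions 153899944 to 153909723, plus strand, protein-coding), stood at 65.5, 83.4 and 92.2 CPM in untreated and 875, 649 and 776 CPM in peritumoral libraries. Every peritumoral library lay far above every untreated one, and the log2 fold change was 3.25 ± 0.24 (± SE, adjusted p = 0.00267), with the call held whichever library was left out. Slc13a3, a dicarboxylate transporter (ENSMUSG00000018459, GRCm38 chromosome 2, positions 165405028 to 165473230, minus strand, protein-coding), stood at 11.3, 13.4 and 10.5 CPM in untreated and 51.6, 64.9 and 56.8 CPM in peritumoral libraries (2.30 ± 0.17, adjusted p = 0.00267). Rhbg, an ammonium transporter, rose by 1.69 ± 0.23, from 3.52, 3.26 and 4.17 to 12.1, 10.04 and 13.3 CPM. Nkd1, a feedback inhibitor of Wnt signalling, rose by 2.90 ± 0.40, from 1.16, 1.98 and 0.944 to 11.8, 6.55 and 12.4 CPM.

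Other Wnt targets of the same zone did not pass the test. Axin2 stood at 7.28, 5.17 and 5.11 CPM in untreated and 8.66, 9.91 and 3.99 CPM in peritumoral libraries (adjusted p = 0.503). Lgr5, the R-spondin receptor, stood at 1.44, 2.62 and 5.58 CPM in untreated and 4.06, 4.19 and 3.87 CPM in peritumoral libraries (adjusted p = 0.628), and both overlapped between the groups. Cyp2e1, the ethanol-oxidising cytochrome, was above every untreated library in all 3 peritumoral ones, at 1192, 663 and 1796 CPM in untreated and 3089, 2586 and 2154 CPM in peritumoral libraries, and did not pass under TMM (adjusted p = 0.128) but passed under hepatocyte scaling (adjusted p = 0.0151). Of 17 pericentral genes tested, 6 rose (35.3%, against 19% of all genes) and none fell (median 0.38, or 0.83 under hepatocyte scaling), 4 rose and 1, the ubiquitin ligase gene Rnf43, fell without peritumoral replicate 2, and 2 fell without untreated replicate 3. The remaining rises were the tight junction gene Cldn2 and Oat, the ornithine aminotransferase. Cldn2 lost its call when untreated 1, 2 or 3 or peritumoral 2 or 3 was omitted (adjusted p = 0.0758 to 0.131). Oat lost its call when untreated 1, 2 or 3 or peritumoral 1 or 2 was omitted (adjusted p = 0.0504 to 0.138).

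Of 17 periportal genes 2 fell (11.8%), about the 10.2% of all genes. Arg1, the arginase that releases urea, stood at 2074, 1939 and 2140.4 CPM in untreated and 1026, 1006 and 983 CPM in peritumoral libraries, with no overlap. Its fall of 1.03 ± 0.30 (adjusted p = 0.0444) did not pass under hepatocyte scaling (adjusted p = 0.136). Arg1 also lost its call when untreated 1, 2 or 3 or peritumoral 1, 2 or 3 was omitted (adjusted p = 0.0534 to 0.186). Sdsl, a serine dehydratase relative, stood at 44.01, 41.8 and 39.1 CPM in untreated and 15.6, 18.7 and 12.5 CPM in peritumoral libraries. It fell by 1.41 ± 0.19 under TMM (adjusted p = 0.00458) and did not pass under hepatocyte scaling (adjusted p = 0.101). Cps1, the first enzyme of the urea cycle, was also lower in every peritumoral library, at 6816, 4978 and 7267 CPM in untreated and 3273, 2442 and 2980 CPM in peritumoral libraries, and did not pass (adjusted p = 0.199). Under hepatocyte scaling the list had 1 fall, of a gene other than Arg1 and Sdsl. With any library but peritumoral 1 omitted it also had 1 fall, that of Sdsl. Its median of -0.40 came to 0.00 under hepatocyte scaling. On TMM levels, untreated replicate 3 was higher than its group for this list by a median of 1.52 on the log2 scale. Its scaling factor was 0.784 under TMM and 1.12 under hepatocyte scaling. Hepatocyte scaling therefore lowers it beside the other untreated libraries. Without untreated replicate 3, 1 gene rose and the median turned to 0.38. With peritumoral 2 omitted as well, 8 of 17 rose and the median was 0.65.

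Cytochromes of the Cyp2c family made up 4 of the 5 rises among drug-metabolising genes. Cyp2c50 (ENSMUSG00000054827, GRCm38 chromosome 19, positions 40089688 to 40113950, plus strand, protein-coding) stood at 42.5, 35.5 and 23.6 CPM in untreated and 326, 625 and 366 CPM in peritumoral libraries. Cyp2c54 stood at 12.6, 6.92 and 17.6 CPM in untreated and 99.3, 176 and 99.5 CPM in peritumoral libraries. Cyp2c37 stood at 4.16, 2.67 and 5.27 CPM in untreated and 51.5, 255 and 113 CPM in peritumoral libraries, and replicate 2 was the highest peritumoral library for all 3 genes. Without it the log2 fold changes were 3.38, 3.06 and 4.41 (against 3.70, 3.34 and 5.12), and all 3 passed with any library left out. These genes lie in a family of near-identical members, so reads may be shared among them. Cyp2c29 (3.30 ± 1.01) lost its call when untreated 1 or 2 or peritumoral 1, 2 or 3 was omitted (adjusted p = 0.051 to 0.133). Cyp3a59 fell, at 25.1, 20.2 and 67.3 CPM in untreated and 3.39, 11.5 and 9.88 CPM in peritumoral libraries, and lost its call with any library left out (adjusted p = 0.0513 to 0.0865) and under hepatocyte scaling (adjusted p = 0.0729). Ugt1a1, which conjugates bilirubin, rose by 0.84 ± 0.23, a call lost when untreated 1 or 2 or peritumoral 2 or 3 was omitted (adjusted p = 0.0537 to 0.126). In all 5 of 20 genes rose (25%, against 19% of all genes) and 1 fell (5%, against 10.2%). Rises numbered 3 when untreated 1 or 2 or peritumoral 3 was omitted.

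Socs2, Cish and Socs3, feedback inhibitors of cytokine receptors, were each among the rises of their lists. Socs2, the growth hormone feedback inhibitor (ENSMUSG00000020027, GRCm38 chromosome 10, positions 95385362 to 95417180, minus strand, protein-coding), stood at 2.25, 2.5 and 3.78 CPM in untreated and 27.6, 139 and 44.8 CPM in peritumoral libraries. Cish, its relative (ENSMUSG00000032578, GRCm38 chromosome 9, positions 107296026 to 107302784, plus strand, protein-coding), stood at 10.2, 10.1 and 4.48 CPM in untreated and 31.4, 53.5 and 40.6 CPM in peritumoral libraries, and neither gene overlapped between the groups. The log2 fold changes were 4.64 ± 0.68 (3.73 without peritumoral replicate 2, the highest library) and 2.34 ± 0.37, with adjusted p = 0.00572 and 0.00684. Exons of Cish overlap antisense transcripts over 11.5% of their length, and no source used here gives the strand setting of the counting. Socs3, the inhibitor induced by interleukin-6 through STAT3, stood at 98.1, 103 and 68.4 CPM in untreated and 426, 212 and 279.7 CPM in peritumoral libraries (1.77 ± 0.31, adjusted p = 0.009), with replicate 2 the lowest peritumoral library. All 3 calls held with each library left out in turn.

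The start regions of Cish and Socs3 are shown because both genes rose and both carry the palindromic letters TTCNNNGAA, the pattern that STAT5 and STAT3 dimers bind. Each run covers 250 bases before to 30 bases from the start of the RefSeq transcript (GRCm38.p6), 5′ to 3′ along the gene, at chr9:107296409-107296688, plus strand, and chr11:117969337-117969616, minus strand; capitals mark only the matches to that pattern.
Cish: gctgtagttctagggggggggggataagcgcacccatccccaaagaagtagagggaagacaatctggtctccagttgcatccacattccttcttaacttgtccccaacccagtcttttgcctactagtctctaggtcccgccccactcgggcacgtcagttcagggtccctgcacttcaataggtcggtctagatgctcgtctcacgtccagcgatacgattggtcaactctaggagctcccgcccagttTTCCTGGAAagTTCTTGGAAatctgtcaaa
Socs3: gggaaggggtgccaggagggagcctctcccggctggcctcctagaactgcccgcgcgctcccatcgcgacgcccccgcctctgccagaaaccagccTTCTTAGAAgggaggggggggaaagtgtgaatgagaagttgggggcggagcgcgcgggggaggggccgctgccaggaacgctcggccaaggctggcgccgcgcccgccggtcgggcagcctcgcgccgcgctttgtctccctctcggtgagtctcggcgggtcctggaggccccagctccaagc
Cish has 2 matches, at bases 1 to 9 and 12 to 20 of the transcript, and Socs3 has 1, at -154 to -146. Such letters occur in 7.83% of the 32851 windows of this length in the RefSeq table and in 5 of 21 windows of the growth hormone and IGF list, from 3 of 13 matched genes. A match describes the letters only.

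Socs3 belongs to the acute phase list. Of 14 tested genes of the growth hormone and IGF list, 4 rose (28.6%, against 19% of all genes) and none fell, except 1 without peritumoral replicate 1. Rises numbered 3 under hepatocyte scaling, 5 on omitting peritumoral 2, and 2 on omitting untreated 1 or 2. Ghr, the growth hormone receptor, stood at 285, 279.6 and 647 CPM in untreated and 498, 276 and 439.6 CPM in peritumoral libraries. Igf1, its main secreted target, stood at 539.5, 399 and 672 CPM in untreated and 602, 284 and 676 CPM in peritumoral libraries, with log2 fold changes of 0.00 ± 0.40 and -0.04 ± 0.38. Lifr, the receptor of leukaemia inhibitory factor, stood at 271, 264 and 352 CPM in untreated and 723, 1508 and 1432 CPM in peritumoral libraries. It rose by 2.05 ± 0.36, a call lost when untreated 1 or 2 was omitted (adjusted p = 0.0549 to 0.0558). Jak2, the kinase of these receptors, rose by 0.74 ± 0.18 but not under hepatocyte scaling (adjusted p = 0.121). Jak2 lost its call when untreated 1 or 2 or peritumoral 3 was omitted (adjusted p = 0.0791 to 0.112).

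Some sex-biased liver genes split the peritumoral group. The male-biased list summed to 20792, 23554 and 50664 CPM in untreated and 12752, 6582 and 11936 CPM in peritumoral libraries, so replicate 1 also lay below every untreated library. The female-biased list summed to 1523, 940 and 346 CPM in untreated and 364, 3029 and 2347 CPM in peritumoral libraries, so replicate 1 lay within the untreated range. Mup20, a urinary protein of males, stood at 1170.4, 2037 and 4402 CPM in untreated and 947, 0.705 and 40.9 CPM in peritumoral libraries. Cyp4a12a, the male fatty acid hydroxylase, stood at 293, 319 and 627 CPM in untreated and 343, 0.166 and 0.694 CPM in peritumoral libraries. Elovl3, a fatty acid elongase, stood at 94.9, 97.5 and 1089 CPM in untreated and 119, 0.2904 and 2.37 CPM in peritumoral libraries. For these 3 genes replicate 1 lay within or close to the untreated range, while replicates 2 and 3 lay far below it. Female-biased genes mirrored this: Cyp3a44 stood at 0.173, 0.0581 and 0.236 CPM in untreated and 1.76, 127 and 304 CPM in peritumoral libraries. Slc22a26, an organic anion transporter, stood at 0.173, 0.0581 and 0.236 CPM in untreated and 2.42, 129 and 152 CPM in peritumoral libraries. Cyp2c69 stood at 0.116, 0.174 and 0.393 CPM in untreated and 0.848, 131 and 151 CPM in peritumoral libraries. Replicate 1 was again nearest the untreated libraries, and replicate 3, which has Ddx3y and no Xist, matched replicate 2 within 3-fold for each of the 3. Replicate 2 stood far above replicates 1 and 3 for 2 others. Sult2a1, a sulfotransferase of female liver, stood at 0, 0 and 0 CPM in untreated and 0.0606, 228 and 0.694 CPM in peritumoral libraries. Fmo2, a flavin monooxygenase, stood at 4.56, 2.44 and 2.75 CPM in untreated and 21.3, 223 and 19.2 CPM in peritumoral libraries. Replicates 1 and 3 also lay above every untreated library for Fmo2.

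**Figure D3:**
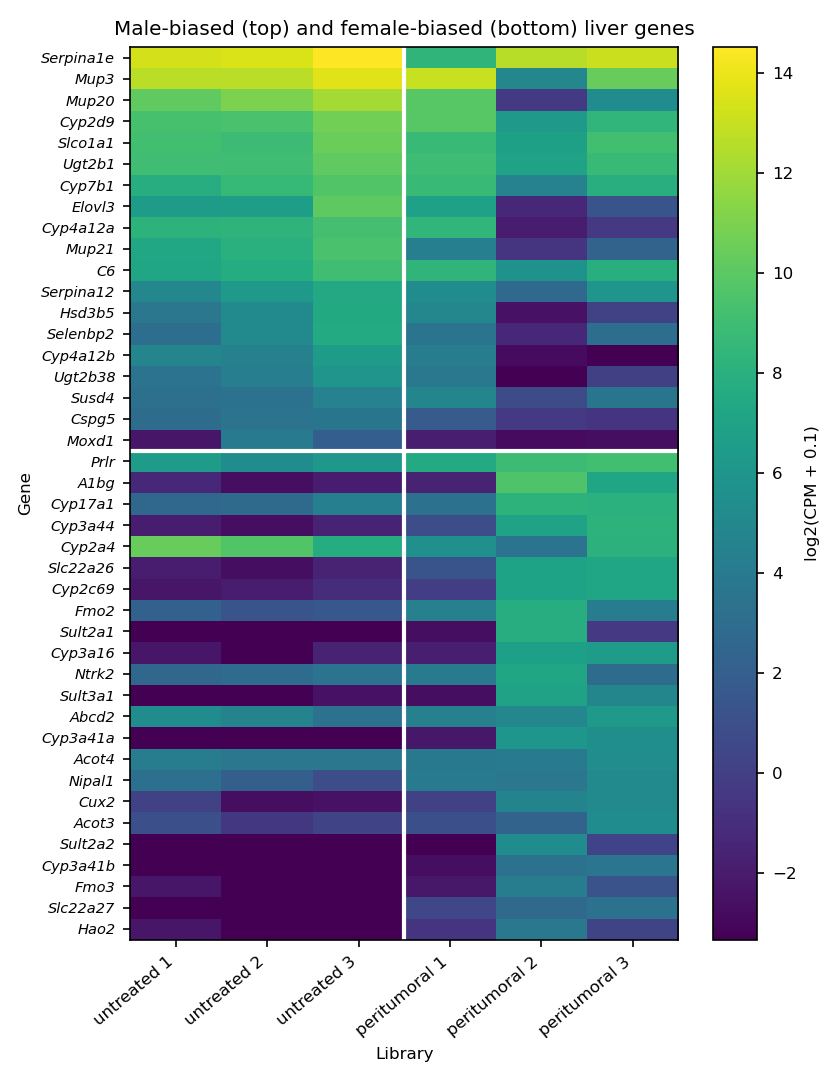
Levels of sex-biased liver genes as log2(CPM + 0.1) (colour), 1 column per library, for genes whose mean reached 5 CPM in either group. Peritumoral replicates 2 and 3 are dark for Cyp4a12a and Elovl3 and bright for Cyp3a44, Slc22a26 and Cyp2c69. For these genes peritumoral replicate 1 is nearer the untreated libraries, while for Mup21, Prlr and Fmo2 it lies outside their range.

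The male-biased and female-biased lists differed in their counts. Of 18 male-biased genes 2 fell, against 10.2% of all genes (median -1.73): Mup21, at 169, 258 and 668 CPM in untreated and 21.02, 0.539 and 5.14 CPM in peritumoral libraries. Cspg5, a proteoglycan, stood at 7.97, 11.05 and 12.1 CPM in untreated and 3.39, 0.664 and 0.578 CPM in peritumoral libraries. The groups did not overlap for either gene, with falls of 5.36 ± 1.29 and 2.76 ± 0.69 that also passed under hepatocyte scaling. Mup21 lost its call when untreated 1, 2 or 3 or peritumoral 3 was omitted (adjusted p = 0.055 to 0.0757). Cspg5 lost its call when untreated 1, 2 or 3 or peritumoral 2 or 3 was omitted (adjusted p = 0.053 to 0.0811). Without peritumoral replicate 1, 9 male-biased genes fell, and 1 did without peritumoral replicate 2 or untreated replicate 1 and none without any other single library. Of 15 female-biased genes tested of 27 listed, 8 rose, against 19% of all genes (median 3.66, or 2.67 without replicate 2), 11 under hepatocyte scaling, 17 without peritumoral replicate 1 (when more members pass the count filter), and 5, 2 and 5 without untreated replicates 1, 2 and 3. Prlr, the prolactin receptor, rose in all 3 libraries, at 88.6, 41.05 and 73.9 CPM in untreated and 193, 481 and 567 CPM in peritumoral libraries (2.61 ± 0.47, adjusted p = 0.0103). Slc22a27, a relative of Slc22a26, had no count in untreated libraries and stood at 1.27, 7.13 and 9.83 CPM in peritumoral ones, at least 95.7-fold higher against a floor of 3 counts over the untreated group. Of the 27 listed genes, 10 had a mean of at least 1 CPM in untreated libraries. The count filter favoured rises among those near 0 CPM there. Slc22a26 lost its call when untreated 2 was omitted (adjusted p = 0.0514). Cyp3a44 lost its call when untreated 1 or 2 was omitted (adjusted p = 0.0549 to 0.0607). Cyp2c69 lost its call when untreated 1, 2 or 3 was omitted (adjusted p = 0.0511 to 0.0732). Fmo2 lost its call when untreated 1, 2 or 3 was omitted (adjusted p = 0.0692 to 0.0848). Cux2, a female-biased transcription factor, and the steroid hydroxylase gene Cyp17a1 rose by 5.75 ± 1.48 and 4.09 ± 1.17. Cux2 lost its call when untreated 2 or 3 or peritumoral 2 or 3 was omitted (adjusted p = 0.0525 to 0.102). Cyp17a1 lost its call when untreated 1, 2 or 3 or peritumoral 2 or 3 was omitted (adjusted p = 0.0672 to 0.133). Cyp, Mup and Sult genes have near-identical relatives that may share their reads.

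Of 22 hepatocyte transcription factors 3 fell (13.6%, against 10.2% of all genes) and none rose. Creb3l3, a liver transcription factor that controls triglyceride clearance (ENSMUSG00000035041, GRCm38 chromosome 10, positions 81084324 to 81098874, minus strand, protein-coding), stood at 479, 440.2 and 511 CPM in untreated and 213, 97.02 and 186 CPM in peritumoral libraries. Ppara, the fatty acid receptor that drives fat oxidation, stood at 132, 94.6 and 101 CPM in untreated and 51.9, 18.7 and 58.7 CPM in peritumoral libraries, and in both genes replicate 2 was the lowest of 3 peritumoral libraries that all lay below the untreated ones. Creb3l3 fell by 1.53 ± 0.31 (adjusted p = 0.0143; -1.21 without replicate 2) and Ppara by 1.34 ± 0.41 (-0.94 without replicate 2), and both passed under hepatocyte scaling. Creb3l3 lost its call when untreated 1 was omitted (adjusted p = 0.0637). Ppara lost its call when untreated 1, 2 or 3 or peritumoral 1 or 3 was omitted (adjusted p = 0.0575 to 0.176). Hnf4a, which maintains hepatocyte identity, was at 991, 838 and 874 CPM in untreated and 630.3, 358 and 588 CPM in peritumoral libraries and did not pass (adjusted p = 0.0856). Nr5a2, a nuclear receptor of bile acid genes, fell by 0.52 ± 0.14 under TMM and stood at -0.24 under hepatocyte scaling (adjusted p = 0.74). Nr5a2 lost its call when untreated 1, 2 or 3 or peritumoral 1 or 3 was omitted (adjusted p = 0.0604 to 0.126). Of this list none fell on omitting untreated 1, and 1 fell on omitting untreated 2 or 3 or peritumoral 3.

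Enzymes of fatty acid oxidation moved in both directions. Cpt2, the inner carnitine palmitoyltransferase of mitochondria, stood at 185, 161 and 189.6 CPM in untreated and 94.3, 44.5 and 97.6 CPM in peritumoral libraries. Hadhb, a subunit of the mitochondrial trifunctional protein, stood at 155, 107 and 109 CPM in untreated and 67.9, 39.4 and 71.7 CPM in peritumoral libraries. Ehhadh, the bifunctional enzyme of peroxisomes, went the other way, at 382, 169.7 and 316 CPM in untreated and 666, 649 and 2014 CPM in peritumoral libraries, and none of the 3 overlapped between the groups. The log2 fold changes were -1.18 ± 0.30, -1.05 ± 0.27 and 1.94 ± 0.56, and those of Cpt2 and Ehhadh passed under hepatocyte scaling. Cpt2 lost its call when untreated 1, 2 or 3 was omitted (adjusted p = 0.0711 to 0.115). Hadhb lost its call when untreated 1, 2 or 3 or peritumoral 2 was omitted (adjusted p = 0.0521 to 0.142). Ehhadh lost its call when untreated 1, 2 or 3 or peritumoral 3 was omitted (adjusted p = 0.0792 to 0.135). Cpt1a, the outer carnitine palmitoyltransferase, fell by 1.00 ± 0.29 but not under hepatocyte scaling (adjusted p = 0.0966). Cpt1a lost its call when untreated 1, 2 or 3 or peritumoral 1 or 2 was omitted (adjusted p = 0.0641 to 0.182). Of 24 genes 1 rose (4.17%, against 19% of all genes) and 3 fell (12.5%, against 10.2%). None fell without any 1 untreated library, and 1 fell without peritumoral replicate 2. On TMM levels, replicate 2 was the lowest peritumoral library for 22 of the 24, against 38.5% of all genes, and the median was -0.65, or -0.27 without it.

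Among lipid droplet genes 3 fell and 1 rose. Plin2, the main droplet coat protein of hepatocytes, stood at 1248, 1149.6 and 509.9 CPM in untreated and 279, 96.6 and 319 CPM in peritumoral libraries, a fall of 2.07 ± 0.54 that was -1.67 without replicate 2. Cidec, which fuses droplets (ENSMUSG00000030278, GRCm38 chromosome 6, positions 113424634 to 113435760, minus strand, protein-coding), stood at 26.6, 26.9 and 1.34 CPM in untreated and 0.606, 0.415 and 0.347 CPM in peritumoral libraries, so untreated replicate 3 lay near the peritumoral libraries and the other untreated libraries far above. Cidec fell by 5.31 ± 1.10 and lost its call when untreated 1 or 2 or peritumoral 3 was omitted (adjusted p = 0.0506 to 0.0538). Plin2 lost its call when untreated 1 or 2 or peritumoral 1 or 3 was omitted (adjusted p = 0.0553 to 0.118). Hilpda, an inhibitor of the lipase that empties droplets, rose in every library, at 6.87, 5.47 and 3.15 CPM in untreated and 18.1, 23.6 and 46.1 CPM in peritumoral libraries (2.50 ± 0.44, adjusted p = 0.00971). Fitm2, a droplet-forming membrane protein, fell by 0.88 ± 0.22 but not under hepatocyte scaling (adjusted p = 0.183). Fitm2 lost its call when untreated 1 or 2 was omitted (adjusted p = 0.0821 to 0.138). Of 11 genes tested 1 rose (9.09%, against 19% of all genes) and these 3 fell (27.3%, against 10.2%). None fell without untreated replicate 1 or 2 and 1 did without peritumoral replicate 3.

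In fat and sterol synthesis 3 genes fell under TMM, a share below that of all genes in both lists. Gpam, the first enzyme of triglyceride synthesis, stood at 169, 179 and 191 CPM in untreated and 107, 95.3 and 117 CPM in peritumoral libraries. Fdps, of the cholesterol pathway, stood at 285, 328 and 269 CPM in untreated and 160.2, 128 and 199 CPM in peritumoral libraries. Lss, the lanosterol synthase, stood at 160.5, 180.2 and 103 CPM in untreated and 73.2, 68.7 and 93.2 CPM in peritumoral libraries, and the peritumoral libraries lay below the untreated ones for all 3. The falls of 0.76 ± 0.15, 0.86 ± 0.21 and 0.92 ± 0.25 did not pass under hepatocyte scaling (adjusted p = 0.278, 0.174 and 0.235). Gpam lost its call when untreated 1 or 2 was omitted (adjusted p = 0.0589 to 0.0709). Fdps lost its call when untreated 1 or 2 or peritumoral 1 or 2 was omitted (adjusted p = 0.059 to 0.117). Lss lost its call when untreated 1 or 2 or peritumoral 1 or 2 was omitted (adjusted p = 0.0788 to 0.15). Of the exon length of Fdps 26.7% is shared with another gene on the same strand. They were 1 fall among 21 genes of fatty acid and triglyceride synthesis (4.76%) and 2 among 23 of cholesterol synthesis and uptake (8.70%), against 10.2% of all genes, with no rise by edgeR or DESeq2 in the cholesterol list. No cholesterol gene fell on omitting untreated 1 or 2 or peritumoral 1, 1 fell on omitting peritumoral 2 and 5 on omitting untreated 3, and 13 fell with peritumoral 2 and untreated 3 both omitted. On omitting untreated 3, 2 fatty acid genes rose. On TMM levels, replicate 2 was the lowest peritumoral library for 19 of 21 and 23 of 23 of these genes.

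Export and breakdown enzymes changed in a few genes. Abcc2, the canalicular pump for conjugated bilirubin (ENSMUSG00000025194, GRCm38 chromosome 19, positions 43782192 to 43840740, plus strand, protein-coding), stood at 839, 675 and 640.3 CPM in untreated and 263, 312 and 329 CPM in peritumoral libraries. Abcg5, a subunit of the canalicular sterol pump, stood at 76.2, 73.7 and 109 CPM in untreated and 48.8, 33.7 and 38.8 CPM in peritumoral libraries. Abcg8, its partner subunit, stood at 65.5, 67.9 and 128 CPM in untreated and 35.1, 33.97 and 26.3 CPM in peritumoral libraries. All 3 were lower in every peritumoral library, by 1.25 ± 0.22, 1.09 ± 0.22 and 1.45 ± 0.30, and missed the threshold under hepatocyte scaling (adjusted p = 0.0696, 0.0716 and 0.052). Abcc2 also lost its call when untreated 1 was omitted (adjusted p = 0.0584). Cyp7a1, the rate-limiting enzyme of bile acid synthesis, stood at 3.58, 5.698 and 106 CPM in untreated and 58.3, 72.7 and 35.4 CPM in peritumoral libraries, with untreated replicate 3 above every peritumoral library and the other untreated libraries below. Of 17 bile acid genes tested 3 fell (17.6%, against 10.2% of all genes) and none rose, while 1 rose under hepatocyte scaling, by DESeq2 or without untreated replicate 3. The median was -0.16, or 0.09 under hepatocyte scaling. It was 0.62 on omitting untreated 3, and with peritumoral 2 omitted as well it was 0.77 and 8 of 17 rose.

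Among enzymes of amino acid breakdown, Tdo2, which opens the tryptophan ring (ENSMUSG00000028011, GRCm38 chromosome 3, positions 81957090 to 81976202, minus strand, protein-coding), stood at 1908, 1516 and 2424 CPM in untreated and 869, 434 and 407 CPM in peritumoral libraries. Acmsd, a later enzyme of the same pathway, stood at 58.2, 85.3 and 50.4 CPM in untreated and 14.1, 15.9 and 3.58 CPM in peritumoral libraries, and neither overlapped between the groups. Tdo2 fell by 1.77 ± 0.43 and Acmsd by 2.53 ± 0.54, both also under hepatocyte scaling. Tdo2 lost its call when untreated 1, 2 or 3 or peritumoral 3 was omitted (adjusted p = 0.0503 to 0.0877). Acmsd lost its call when untreated 1 or 2 was omitted (adjusted p = 0.0533 to 0.0614). Prodh, the proline dehydrogenase, rose by 1.30 ± 0.34, at 59.4, 48.4 and 116 CPM in untreated and 149.5, 194 and 205 CPM in peritumoral libraries, a call lost when untreated 1 or 2 or peritumoral 3 was omitted (adjusted p = 0.0848 to 0.103). Of 33 genes 1 rose (3.03%, against 19% of all genes) and 3 fell (9.09%, against 10.2%), the last being Gldc, the glycine decarboxylase. Gldc lost its call when untreated 1, 2 or 3 or peritumoral 2 or 3 was omitted (adjusted p = 0.0634 to 0.116). The median was -0.02, or 0.21 under hepatocyte scaling. None fell without untreated replicate 1 or 2, 1 without untreated replicate 3 or peritumoral replicate 3, and 3 rose without untreated replicate 3. With peritumoral 2 omitted as well, 15 of 33 rose and the median was 0.59.

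Secreted plasma proteins did not pass in either direction. None of 25 passed by edgeR, also at an unadjusted p under 0.05, while DESeq2 called 3 lower and 1 rose without untreated replicate 3. Apob, the protein of very low density lipoprotein, was lower in every peritumoral library, at 7658, 6001 and 6933 CPM in untreated and 3959.9, 1685 and 3338 CPM in peritumoral libraries, and did not pass (adjusted p = 0.221). On TMM levels, replicate 2 was the lowest peritumoral library for 25 of the 25, against 38.5% of all genes, and the median was -0.29, or 0.01 without it. Of 25 acute phase genes 4 rose (16%, against 19% of all genes) and none fell (2 rose without untreated replicate 1 or 2). Cebpd, a transcription factor of the acute phase response, stood at 4.45, 6.803 and 6.21 CPM in untreated and 35.4, 22.4 and 36.3 CPM in peritumoral libraries (2.43 ± 0.27, adjusted p = 0.00351), and 15% of its exon length overlaps an antisense gene. Hp, haptoglobin, a major acute phase product, stood at 3466, 3003 and 11473 CPM in untreated and 4072, 4955 and 9220 CPM in peritumoral libraries and did not pass (adjusted p = 0.987). A2m, a protease inhibitor, and Il1rn, the interleukin-1 receptor antagonist, rose by 4.16 ± 0.85 and 1.93 ± 0.49. A2m lost its call when untreated 1 or 2 was omitted (adjusted p = 0.0584 to 0.0685). Il1rn lost its call when untreated 1, 2 or 3 or peritumoral 2 or 3 was omitted (adjusted p = 0.0641 to 0.0871).

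**Figure D4:**
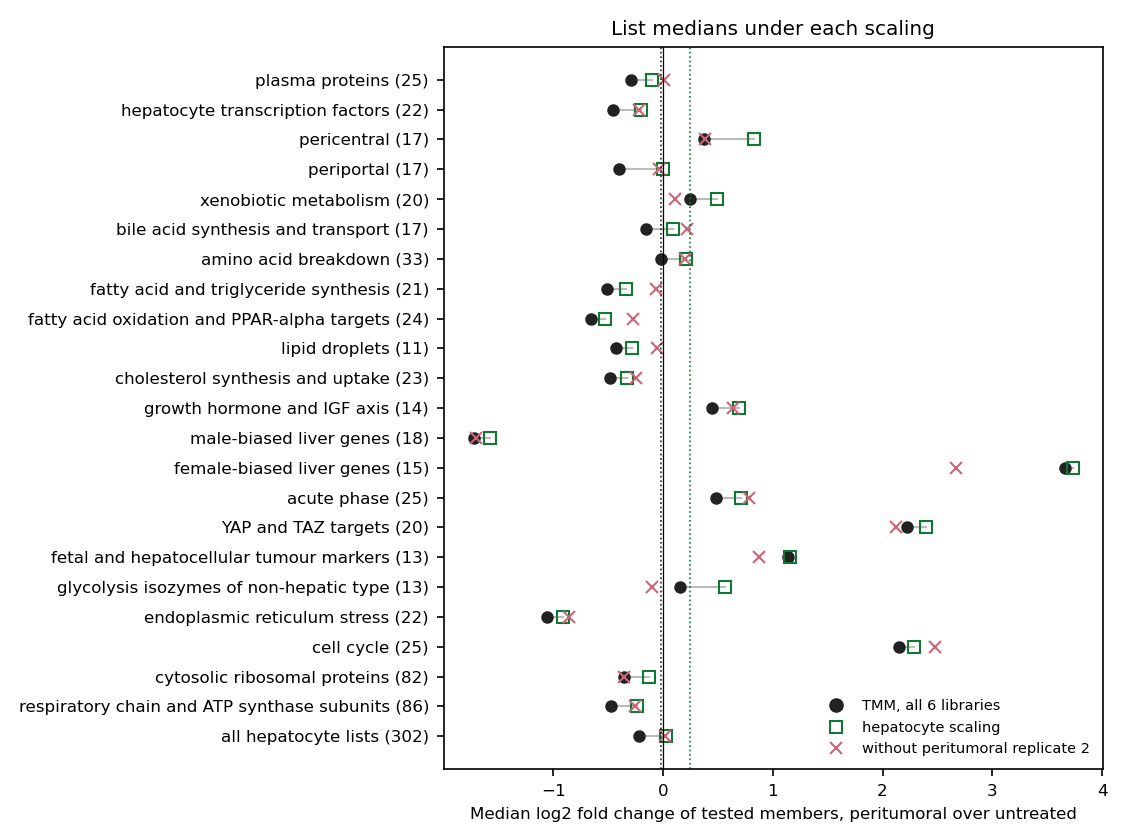
Median log2 fold change of the tested members of each list (x axis; number of members in parentheses) under TMM with all 6 libraries, under hepatocyte scaling and without peritumoral replicate 2; dotted lines mark the median of all genes under each scaling. The pericentral and female-biased medians lie above the dotted lines in all 3, male-biased and endoplasmic reticulum genes lie below, and most metabolic lists move towards or past 0 under hepatocyte scaling.

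Several gene groups are used both by hepatocytes and by other cells, and in these data the markers of other cells rose beside them. Of 20 YAP and TAZ targets 14 rose (against 19% of all genes) and none fell (13 under hepatocyte scaling, 14 without peritumoral replicate 2). Igfbp3, a binding protein of insulin-like growth factors, stood at 5.08, 5.99 and 7.08 CPM in untreated and 57.98, 57.6 and 36.8 CPM in peritumoral libraries. Ctgf, a matricellular protein, stood at 9.24, 10.99 and 6.37 CPM in untreated and 47.1, 62.3 and 50.7 CPM in peritumoral libraries. Both held with any library left out, at 3.07 ± 0.25 and 2.59 ± 0.25, though 23.2% of the exon length of Ctgf overlaps an antisense gene. Axl, a receptor kinase that macrophages and stromal cells also express, stood at 18.3, 17.7 and 15.3 CPM in untreated and 80.4, 103 and 179 CPM in peritumoral libraries. The start regions of Cyr61 and Ankrd1, 2 targets that rose by 2.05 ± 0.34 and 2.40 ± 0.51, are shown because they carry GGAATG or its reverse complement CATTCC, the letters TEAD factors bind; they cover the same span as above, at chr3:145649956-145650235, minus strand, and chr19:36119815-36120094, minus strand, with the matches in capitals.
Cyr61: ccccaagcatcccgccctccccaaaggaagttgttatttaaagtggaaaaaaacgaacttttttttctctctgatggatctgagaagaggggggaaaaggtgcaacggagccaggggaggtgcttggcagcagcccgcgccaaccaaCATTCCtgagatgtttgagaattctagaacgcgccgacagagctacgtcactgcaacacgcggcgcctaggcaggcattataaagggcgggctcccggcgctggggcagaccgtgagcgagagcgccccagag
Ankrd1: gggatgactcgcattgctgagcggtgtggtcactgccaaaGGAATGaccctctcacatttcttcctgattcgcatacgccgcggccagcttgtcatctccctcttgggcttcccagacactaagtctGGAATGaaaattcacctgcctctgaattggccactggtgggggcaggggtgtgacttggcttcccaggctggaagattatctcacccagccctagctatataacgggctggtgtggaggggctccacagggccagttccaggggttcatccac
Cyr61 has 1 match, at -103 to -98, and Ankrd1 has 2, at -210 to -205 and -123 to -118. These letters occur in 13.9% of all windows of this length and in 8 of 18 windows of the list, 1 each from 8 of 16 matched genes; matches of this pattern and of TTCNNNGAA can overlap, and those in capitals do not. Ankrd1 lost its call when untreated 1 was omitted (adjusted p = 0.071).

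The cell cycle genes that rose included mitotic ones: Ccnb1, the mitotic cyclin, stood at 0.173, 0.233 and 0.0787 CPM in untreated and 6.85, 4.89 and 6.59 CPM in peritumoral libraries. Foxm1, a transcription factor of dividing cells, stood at 1.04, 0.9303 and 0.944 CPM in untreated and 7.69, 10.3 and 14.4 CPM in peritumoral libraries. Of 25 cell cycle genes 13 rose (against 19% of all genes) and none fell (7 rose without untreated replicate 1, and 2 fell without untreated replicate 3), while the replication helicase genes Mcm2 to Mcm7 overlapped between the groups. Of 13 fetal and tumour markers 5 rose (38.5%, against 19% of all genes), with 1 left without untreated replicate 1 or 2 and 2 falling without untreated replicate 3. Igf2, a fetal growth factor, reached 1.03, 4.56 and 2.02 CPM from at most 0.173 CPM, though 62.8% of its exon length is shared with another gene on the same strand. Gdf15, a stress hormone, stood at 41.99, 26.7 and 56.01 CPM in untreated and 381, 106 and 215 CPM in peritumoral libraries (2.49 ± 0.50), with replicate 2 the lowest peritumoral library, a call lost when untreated 1 or 2 was omitted (adjusted p = 0.0595 to 0.0607). Afp, the fetal albumin, was not among the rises, at 5.95, 13.9 and 2.202 CPM in untreated and 2.61, 0.871 and 1.503 CPM in peritumoral libraries (adjusted p = 0.0625).

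Some of the chaperones and other endoplasmic reticulum genes fell. Derl3, of the pathway that removes misfolded proteins, stood at 11.03, 18.8 and 26.8 CPM in untreated and 4.73, 0.8296 and 1.73 CPM in peritumoral libraries. Asns, the asparagine synthetase induced by ATF4, stood at 108, 77.04 and 16.4 CPM in untreated and 9.15, 8.05 and 4.798 CPM in peritumoral libraries. Atf3, a stress-induced transcription factor, went up, at 171, 142 and 87 CPM in untreated and 483, 286 and 311 CPM in peritumoral libraries, and the groups did not overlap for any of the 3. Their log2 fold changes of -2.97 ± 0.67, -3.19 ± 0.67 and 1.43 ± 0.32 passed under hepatocyte scaling. Derl3 lost its call when untreated 2 or 3 or peritumoral 3 was omitted (adjusted p = 0.0528 to 0.0627). Asns lost its call when untreated 1 or 2 or peritumoral 3 was omitted (adjusted p = 0.0506 to 0.0582). Atf3 lost its call when untreated 1 or 2 was omitted (adjusted p = 0.0541 to 0.0746). Of 22 genes 7 fell (31.8%, against 10.2% of all genes) and 1 rose (4.55%, against 19%), with a median of -1.06. Under hepatocyte scaling 4 fell, and 13 did by DESeq2. Falls numbered 11, 3 and 0 without peritumoral 1, 2 and 3, and 1 and 0 without untreated 1 and 2.

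Some glycolytic isozymes of other tissues rose, and 2 enzymes used by all cells fell. Hk1, the hexokinase of most non-hepatic cells, stood at 2.37, 3.26 and 1.97 CPM in untreated and 12.6, 17.5 and 17.7 CPM in peritumoral libraries. Pkm, the pyruvate kinase of such cells, stood at 18.6, 20.4 and 9.99 CPM in untreated and 54.8, 107 and 68.1 CPM in peritumoral libraries. They rose by 2.65 ± 0.28 and 2.23 ± 0.36, with any library left out, and 15.3% of the exon length of Pkm is shared with another gene. Gapdh and Tpi1, used by all cells, fell by 0.88 ± 0.24 and 0.78 ± 0.23 but not under hepatocyte scaling (adjusted p = 0.103 and 0.247). Gapdh lost its call when untreated 1, 2 or 3 or peritumoral 1 or 3 was omitted (adjusted p = 0.0541 to 0.138). Tpi1 lost its call when untreated 1 or 2 or peritumoral 1, 2 or 3 was omitted (adjusted p = 0.0561 to 0.202). Of 13 genes 5 rose (38.5%, against 19% of all genes) and 2 fell (15.4%, against 10.2%). On omitting untreated 2 alone 2 rose, and 0 fell when untreated 1 or 2 or peritumoral 1 or 3 was omitted, against 1 for untreated 3 or peritumoral 2. Of 82 cytosolic ribosomal protein genes none rose and 5 fell (6.10%, against 10.2% of all genes). Under TMM all 82 had a negative log2 fold change (median -0.35, or -0.12 under hepatocyte scaling), and 50 were lower with no overlap between the groups, against 24.5% of all genes. Falls numbered 58 with peritumoral 2 and untreated 3 both omitted, 1 under hepatocyte scaling, 15 by DESeq2, 30 without untreated replicate 3, 1 without untreated replicate 1 or 2 and 2 without any 1 peritumoral library. Rpl29 fell most, at 62.8, 64.1 and 34.8 CPM in untreated and 9.88, 10.4 and 9.88 CPM in peritumoral libraries (-2.42 ± 0.26, adjusted p = 0.0033), with any library left out. Ribosomal protein genes have many processed copies that may take reads. Of 86 respiratory chain and ATP synthase genes 1 rose (1.16%, against 19% of all genes) and 4 fell (4.65%, against 10.2%). By DESeq2 8 fell, and 9 and 2 did on omitting peritumoral 1 and 2. Under hepatocyte scaling or without any 1 untreated library or peritumoral replicate 3, 0 fell. Ndufaf4 and Ndufs7, of complex I, fell by 0.99 ± 0.24 and 0.80 ± 0.23. Ndufaf4 lost its call when untreated 1, 2 or 3 or peritumoral 3 was omitted (adjusted p = 0.06 to 0.0913). Ndufs7 lost its call when untreated 1, 2 or 3 or peritumoral 2 or 3 was omitted (adjusted p = 0.0769 to 0.137). Cox6b2, a cytochrome oxidase isoform of testis, had 2 counts against 74, a ratio of 30.2 (95% counting interval 8.06 to 254).

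Among genes measured at 20 CPM or more in untreated hepatocytes that passed the test and did not overlap between groups, the 6 largest rises were Spp1, Clec4f, Cyp2c50, Sparc, Bgn and C1qa. Spp1, osteopontin, made by bile duct cells and macrophages, stood at 15.7, 20.8 and 35.6 CPM in untreated and 980.1, 7355 and 717 CPM in peritumoral libraries (6.97 ± 1.18; 5.20 without replicate 2), with 18.8% of its exon length shared with another gene. Clec4f, the lectin of Kupffer cells, stood at 40.8, 54.4 and 41.1 CPM in untreated and 385, 341 and 1149 CPM in peritumoral libraries. C1qa, a complement gene of macrophages, stood at 26.2, 20.9 and 16.05 CPM in untreated and 126, 182 and 341 CPM in peritumoral libraries. Sparc and Bgn, matrix genes, rose by 3.69 ± 0.34 and 3.66 ± 0.25, so Cyp2c50 was the only 1 of the 6 outside the marker lists of other cells. Among genes at 50 CPM or more that passed the test and did not overlap between groups, the 6 largest falls were Mup21, Gsta1, Asns, Fkbp11, Acmsd and Rpl29. Gsta1, a glutathione transferase with near-identical relatives, stood at 57.8, 89.3 and 15.7 CPM in untreated and 3.88, 1.701 and 0.462 CPM in peritumoral libraries (-4.75 ± 0.92). Fkbp11, a prolyl isomerase of the secretory pathway, stood at 88.7, 101 and 44.8 CPM in untreated and 17.6, 8.75 and 12.1 CPM in peritumoral libraries (-2.61 ± 0.39); all 6 also fell under hepatocyte scaling and without peritumoral replicate 2.

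Notch1 and Akt1 match the injected plasmids, and reads from a plasmid and from the mouse gene cannot be told apart in this table. Notch1 stood at 20.8, 18.7 and 24.4 CPM in untreated and 77.4, 355 and 79.5 CPM in peritumoral libraries, highest in replicate 2, with a log2 fold change of 3.002 ± 0.64 (1.93 without replicate 2). Notch1 lost its call when untreated 1 or 2 was omitted (adjusted p = 0.0654 and 0.073). Akt1 stood at 79.8, 87.1 and 58.8 CPM in untreated and 86.2, 193 and 104 CPM in peritumoral libraries and did not pass (adjusted p = 0.126).

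Falls were lost more often than rises when peritumoral replicate 2 was omitted, and also when some other libraries were. Replicate 2 was the highest of the 3 peritumoral libraries in 41.7% of all tested genes and in 1328 (51.9%) of the 2560 that rose. In 332 of the 2560 it stood more than 4-fold above the mean log2 level of replicates 1 and 3. Without it 2478 genes rose, among them 2323 of the 2560 (90.7%), and the median log2 fold change of the 2560 went from 2.68 to 2.59. On TMM levels it was the lowest peritumoral library in 869 (63.4%) of the 1370 genes that fell. Its scaling factor was 1.31 under TMM and 0.872 under hepatocyte scaling. For replicates 1 and 3 the factors were 1.01 and 0.970 under TMM and 1.08 and 1.06 under hepatocyte scaling. A larger factor lowers every level of a library, so hepatocyte scaling raises replicate 2 beside the other peritumoral libraries. Its ranks were not taken under that scaling. Without replicate 2, 626 genes fell, among them 525 of the 1370 (38.3%), and the median of the 1370 moved from -0.80 to -0.68. Without peritumoral replicate 3, 2094 of the 2560 rises and 401 of the 1370 falls were kept. Without untreated replicate 1 or 2, 1277 or 1335 of the rises and 63 or 129 of the falls were kept. More falls were kept without peritumoral replicate 1 (2386 rises and 929 falls) or untreated replicate 3 (1896 and 1035). The loss of falls was therefore not particular to replicate 2. No called gene changed sign. The biological coefficient of variation, the replicate spread beyond counting error, dropped from 0.358 to 0.270 without it.

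**Figure D5:**
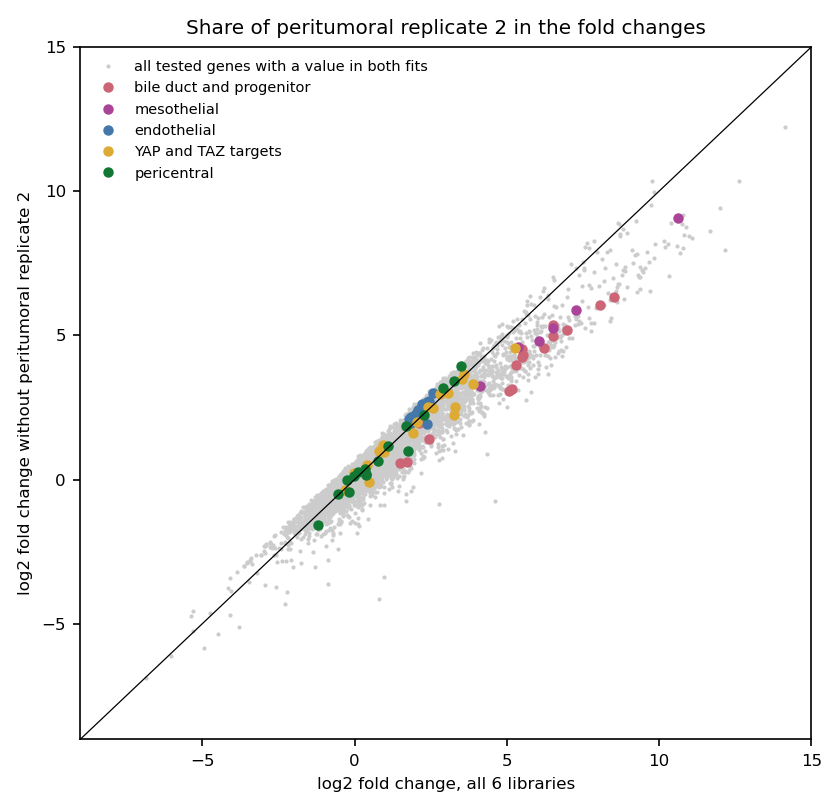
Log2 fold change with all 6 libraries (x axis) against that without peritumoral replicate 2 (y axis); grey points are all genes with a value in both, coloured points are members of 5 lists, and the line marks equality. Bile duct and mesothelial markers lie below the line (medians 4.28 and 5.03 without replicate 2, 5.51 and 6.29 with it) and stay positive, while endothelial and pericentral genes lie close to it.

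Genes most particular to it, by its level against the mean of replicates 1 and 3, are described here with no test. Sult1e1, the oestrogen sulfotransferase, stood at 2.89, 2.56 and 0.0787 CPM in untreated and 0, 137 and 2.196 CPM in peritumoral libraries. Cyp2b10, the cytochrome induced by the receptor CAR, stood at 13.8, 14.1 and 20.8 CPM in untreated and 9.33, 314 and 8.15 CPM in peritumoral libraries. Stc2, a secreted stanniocalcin, stood at 0.0578, 0.0581 and 0 CPM in untreated and 4.73, 113 and 4.22 CPM in peritumoral libraries, and the predicted gene Gm14226 at 2.12, 93.95 and 1.68 CPM in peritumoral libraries with no count in untreated ones. For Sult1e1 and Cyp2b10 only replicate 2 lay above the untreated libraries, and without it the log2 fold changes were -0.74 and -0.84. For Stc2 and Gm14226 replicates 1 and 3 also lay above every untreated library. At the other end, Car3, a carbonic anhydrase of male liver, stood at 457, 505 and 3374 CPM in untreated and 2298, 8.67 and 849 CPM in peritumoral libraries. Mup7 stood at 2089.7, 2728 and 4306 CPM in untreated and 1229, 1.203 and 89.7 CPM in peritumoral libraries. Serpina3c, a serine protease inhibitor with near-identical relatives, stood at 0.289, 0.465 and 0.236 CPM in untreated and 647, 0.539 and 241 CPM in peritumoral libraries. Replicate 2 was thus at or near the untreated level for Serpina3c and far below both groups for Car3, Mup7 and, as given above, Mup20.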

How the data were processed

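Polyadenylated RNA was sequenced from libraries of a stranded mRNA kit with 1 µg of RNA as input, per the labels' protocols. The authors deposited raw counts per gene for 41128 genes; STAR, DESeq2, mm10 and GRCm38 are named per the submitters' processing notes. Versions, gene annotation and strand setting are not given in the sources. Overlapping genes and near-identical family members may therefore share reads. A deposited table of RPM values was not used. Groups came from sample titles; 6 libraries, 3 per group, entered 1 fit. Replicates differed by more than counting noise, so no library was treated as a repeat deposit; repeat preparations of 1 animal would differ so too.

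The fit used edgeR 4.0.16 under R 4.3.3 (TMM factors, filterByExpr at min.count 10 and min.total.count 15, two-sided quasi-likelihood F test, Benjamini-Hochberg adjustment over 13442 genes, threshold 0.05, prior count 0.125). Hepatocyte scaling computed TMM factors on 244 genes of the hepatocyte lists, leaving out the sex-biased and acute phase lists; since those genes are tested too, it sets their median near 0 by construction. Other alternatives were RLE factors, no count filter, a minimum count of 50, DESeq2 1.42.0, the replicate number as a block, and each library left out; edgeR's older quasi-likelihood method and leaving out peritumoral replicate 2 with untreated replicate 3 were added after seeing the data. The tests were run on simulated counts first. Positions and exon overlaps came from GENCODE M21 (97.9% of IDs found) and promoter windows from RefSeq (GRCm38.p6).

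The members and the 32 gene lists were chosen with earlier results of these data known. Named genes are 15 fixed ones, up to 2 rises and 2 falls with the smallest p per hepatocyte or mixed list, 1 marker per other cell type, the 6 largest rises and falls among genes that passed the test without overlap between groups, and the 4 genes highest and lowest in peritumoral replicate 2; other list members named were chosen after their values were seen. A gene that this rule names is not reported here.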

Additional observations from a re-analysis of the deposited data

How the results depend on the processing

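The 2560 rises ranged from 1293 to 2657 with 1 library left out, and the 1370 falls from 66 to 1398. Falls numbered 116 under hepatocyte scaling, 828 with a minimum count of 50, 709 with the replicate block and 2382 without peritumoral replicate 2 and untreated replicate 3. Rises in hepatocyte lists (30) ranged from 14 to 38 with 1 library left out and reached 84 without those 2 libraries. Falls there (23) ranged from 4 to 26, with 11 under hepatocyte scaling, 37 by DESeq2 and 43 without those 2 libraries. Markers of other cells that rose (87) ranged from 67 to 89 with 1 library left out. The cause of these moves was not tested, other than that leaving out a library leaves fewer samples. Deviations of same-numbered libraries from their group means correlated at r = -0.244, 0.190 and 0.109. Untreated replicate 1 correlated best with peritumoral replicate 2 (0.216). With 3 libraries per group these values cannot decide whether the numbers pair the samples. With the replicate number as a block 2237 genes rose and 709 fell. With 1 library left out, the log2 fold change turned sign for Alb (-0.14 to 0.58, lowest without peritumoral replicate 3), Cyp7a1 (-0.0027 to 3.56, lowest without untreated replicate 2), Sult1e1 (-0.74 to 5.20) and Cyp2b10 (-0.84 to 3.31), both lowest without peritumoral replicate 2, and Car3 (-1.76 to 1.12, with 0.21 without peritumoral replicate 2). Without peritumoral replicate 2 and untreated replicate 3 they were -1.29 for Sult1e1, -0.68 for Cyp2b10 and 1.71 for Car3. Of 87 named genes, 69 stayed on their side of the threshold under hepatocyte scaling, 79 by DESeq2 and 56 without untreated replicate 2. With 3 counts worth 0.124 to 0.236 CPM, genes below that level in both groups could not be compared.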
